A study of Mus musculus with 12 samples.

Results

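The p53 target genes described here are 10 genes known to be transcribed under the control of the tumour suppressor p53: Cdkn1a, Mdm2, Ccng1, Sesn1, Fas, Bbc3, Pmaip1, Bax, Trp53inp1 and Phlda3. They were chosen by name and matched by symbol to the Ensembl identifiers of the count files. All 10 were found and all 10 had enough counts to be tested, among 13535 genes tested and 55487 identifiers listed. Their mRNA was measured by RNA sequencing in primary mouse hepatocytes, the parenchymal cells of the liver, in culture. Control cells were left untreated, FAC cells received FAC (not spelled out in the labels), and the remaining groups were given, on day 2 of culture and ahead of FAC, a compound that scavenges reactive oxygen species (ROS). The scavenger was liproxstatin-1, directed at lipid ROS, in Lip-1+FAC, and Mito-TEMPO, directed at mitochondrial ROS, in MT+FAC. Each group holds 3 libraries. All groups share the culture itself, and a scavenger was never given without FAC, so that scavenger effects are known only in the presence of FAC. The labels give no strain, age, sex, dose or duration and do not say whether replicates came from separate animals or cultures. The p-values therefore measure the spread between these libraries, which may be technical.

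The protein p53 is a transcription factor kept low in unstressed cells by the ubiquitin ligase Mdm2. DNA damage, oxidative stress and other insults stabilise it, and it then binds a response element made of paired decamers near its target genes. The targets halt the cell cycle, limit p53 itself, adjust metabolism or promote apoptosis, and several of them are also controlled by other stress-responsive factors. In hepatocytes p53 is known for its response to genotoxic and oxidative injury.

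Promoter sequences show where the decamer occurs close to the starts of these genes. Of the 10 genes, 8 matched the RefSeq promoter table (GRCm38.p6), with 12 windows that run from 250 bases before to 50 bases after a gene's start. The p53 decamer consensus, which reads the same on both strands, was found in 5 of these 12 windows, against 8.36% of all 32851 windows. Decamers paired with a spacer of at most 13 bases were found in 1 of the 12 windows, that at the earlier start of Cdkn1a, against 0.073% of all windows. The stretches that hold the decamers, in capitals, with 20 bases on either side, are shown because the genes that carry them went different ways in the data. The Cdkn1a stretch lies at chr17:29090886-29090957 on the plus strand, with 12 bases between the decamers. The first decamer begins 73 bases before the earlier of the gene's starts, and the window at its later start holds no decamer. The Mdm2 stretch (chr10:117710915-117710964, minus strand), the Ccng1 stretch (chr11:40755442-40755491, minus), the Bax stretch (chr7:45467070-45467119, minus) and the Sesn1 stretch (chr10:41887246-41887295, plus, at the later of its starts) begin their decamers 186, 185, 201 and 173 bases before the start.
Cdkn1a: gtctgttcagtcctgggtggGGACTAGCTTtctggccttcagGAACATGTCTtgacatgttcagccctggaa
Mdm2: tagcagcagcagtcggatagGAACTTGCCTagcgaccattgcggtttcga
Ccng1: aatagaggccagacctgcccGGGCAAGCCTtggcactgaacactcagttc
Bax: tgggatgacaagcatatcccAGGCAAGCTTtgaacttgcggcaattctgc
Sesn1: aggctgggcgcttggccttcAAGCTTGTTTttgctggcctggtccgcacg
A match is a description of letters and shows neither binding nor control. Response elements further from the start, or with a mismatch to the consensus, lie outside this search.

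Depth was between 22991598 and 31683376 gene-assigned counts per library except in FAC replicate 2, which held 52529278. Its file alone carries the tag "comb" in place of a sequencing sample number, without further explanation, and it enters every comparison with FAC as 1 of 3 replicates. The 10 hepatocyte markers summed to between 19600 and 20290 CPM (counts scaled to a common library size with TMM factors, the trimmed mean of M values) in control and to between 18590 and 19120 CPM in FAC, with Alb, the albumin gene, alone at 9625 CPM in the control mean. In FAC against control 3 of the 10 were called lower and 1 higher, and the urea cycle gene Cps1 changed most, at -1.25. They summed to less in the pretreated groups, between 14610 and 15770 CPM in Lip-1+FAC and between 15140 and 16570 CPM in MT+FAC, and 10 and 8 of them were called lower there than in control. Cps1 went against that sum when set beside FAC, at 0.54 and 0.57. Among markers of other liver cells, the endothelial list summed to between 33.6 and 36.0 CPM in control and FAC. In the pretreated groups it summed to between 24.9 and 29.7 CPM. Stab2, at 26.5 CPM in the FAC mean, made up most of these sums. It was the 1 of 5 tested members called against FAC, at -0.57 with liproxstatin-1 and -0.46 with Mito-TEMPO. The list as a whole did not fall alike: its median against FAC was -0.227 with liproxstatin-1 and 0.205 with Mito-TEMPO. The stellate cell and fibroblast list summed to between 21.3 and 28.2 CPM in control, 30.6 and 39.0 CPM in FAC, and 14.1 and 21.6 CPM in the pretreated groups, but its members did not move together: of 6 tested, 1 was called higher and 1 lower in FAC against control. Cd3e, Nkg7 and S100a9 of the lymphocyte and neutrophil list had no count in any library. The cholangiocyte list summed to between 58.6 and 69.0 CPM in control and between 98.4 and 144.7 CPM in the treated libraries. Of its 5 members, 4 rose in FAC against control, among them Sox9 by 1.62 and Krt19 by 1.32 on the log2 scale, and all 4 were lower in both pretreated groups than in FAC. The remaining member, Spp1, was not called in FAC (0.09) and rose against FAC by 1.22 with liproxstatin-1 and by 1.24 with Mito-TEMPO, from 43.6 to 101.4 and 102.6 CPM. The macrophage list summed to between 223.8 and 255.4 CPM in control, 289.7 and 322 CPM in FAC and 116.5 and 175 CPM in the pretreated groups. Most of that sum came from Cd68, while the Kupffer cell gene Clec4f went the other way, at -1.08 in FAC against control and 1.16 in MT+FAC against FAC. The part of these cells or genes in the results was not tested. In such bulk libraries fewer cells of a type and less RNA per cell cannot be told apart.

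Per kilobase of exon, the level of these genes ran from Cdkn1a, with a mean over the 12 libraries of 83.1 CPM per kb, through Trp53inp1, Ccng1, Bax and Mdm2 (62.0, 42.6, 39.5 and 36.3 CPM per kb) to Sesn1 at 10.7 CPM per kb. Phlda3, Bbc3, Fas and Pmaip1 formed the low end at 8.73, 6.51, 5.80 and 3.25 CPM per kb. Raw counts ranged from 89 for Pmaip1 to 28085 for Trp53inp1, so that every member was measured in every library. Among the group means of each gene, the highest was that of FAC for 5 genes, of control for 4 and of MT+FAC for 1. The lowest was that of Lip-1+FAC for 4 genes, of FAC for 3, of MT+FAC for 2 and of control for 1. The genes thus did not follow a common order of groups.

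**Figure D1:**
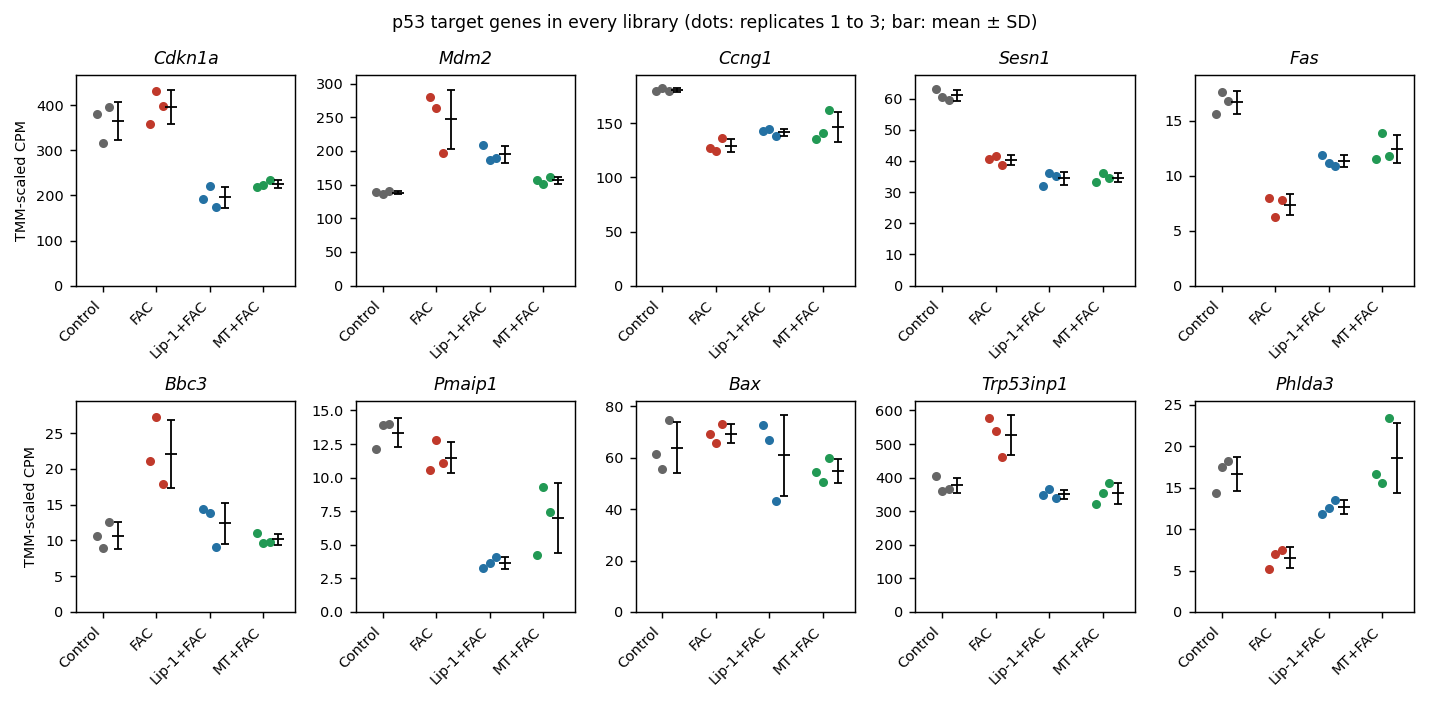
TMM-scaled CPM (linear axes from 0) of each p53 target gene in every library, by group; dots are replicates 1 to 3 and the bar is the mean with its SD. The means of Mdm2, Bbc3 and Trp53inp1 are highest in FAC, those of Fas and Phlda3 lowest there, and Cdkn1a and Pmaip1 lower in both pretreated groups than in control and FAC.

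The effect of FAC alone was measured by comparing FAC with control libraries. FAC split the p53 targets: Mdm2, Bbc3 and Trp53inp1 rose, while Fas, Phlda3, Sesn1 and Ccng1 fell, and Cdkn1a, the most familiar p53 target, was not called. The edgeR quasi-likelihood test, at an adjusted p under 0.05 over all genes tested, called 7 of the 10 genes, 3 higher and 4 lower. It called 36.6% of all genes in this comparison, 17.5% higher and 19.1% lower. The median log2 fold change of the 10 genes was -0.05, beside -0.01 for all genes tested. Every FAC library lay above every control library for 3 of the 10 genes and below for 4, beside 21.7% and 24.5% of all genes. These 7 calls were made in each of the alternative fits, those leaving out a library included.

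Cdkn1a encodes p21, the inhibitor of cyclin-dependent kinases through which p53 arrests the cell cycle (ENSMUSG00000023067, GRCm38 chromosome 17, 29090976 to 29100727). The control libraries stood at 379.7, 317 and 396 CPM and the FAC libraries at 358, 431 and 398 CPM. The groups overlapped, and the difference was 0.12 on the log2 scale (SE 0.093, edgeR adjusted p = 0.343, 95% interval -0.08 to 0.32). Of its exonic bases 7.68% are shared with an annotated transcript on the opposite strand, and with the strand columns summed the value was 0.19.

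Mdm2 and Ccng1 act back on p53, Mdm2 (ENSMUSG00000020184, chromosome 10, 117688875 to 117710758) as the ligase that marks it for degradation and Ccng1 (cyclin G1, ENSMUSG00000020326, chromosome 11, 40748552 to 40755311) as an activator of Mdm2. Mdm2 stood at 139, 135.5 and 140.2 CPM in control and at 279.7, 264 and 197 CPM in FAC. Every FAC library lay above every control library, and Mdm2 rose by 0.84 on the log2 scale (SE 0.097, edgeR adjusted p = 9.55e-06), a 1.79-fold difference. Ccng1 stood at 179.5, 183 and 179.9 CPM in control and at 127, 124 and 137 CPM in FAC. It went the other way without overlap, at -0.48 on the log2 scale (SE 0.064, edgeR adjusted p = 1.39e-05).

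The apoptosis genes went in both directions. Bbc3 encodes PUMA, a BH3-only protein that neutralises BCL2-type survival proteins (ENSMUSG00000002083, chromosome 7, 16308393 to 16318205). It stood at 10.6, 8.89 and 12.6 CPM in control and at 21.1, 27.2 and 17.9 CPM in FAC. The groups did not overlap, and the rise was 1.05 on the log2 scale (SE 0.18, edgeR adjusted p = 0.000294). Trp53inp1, a nuclear protein that favours p53-dependent death and autophagy (ENSMUSG00000028211, chromosome 4, 11156431 to 11174379), stood at 403, 361 and 367 CPM in control. In FAC it stood at 578, 538 and 461 CPM, above every control library, a rise of 0.48 (SE 0.079, edgeR adjusted p = 0.000154). FAC replicate 3 was the lowest of its group for all 3 genes that rose.

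Fas encodes the death receptor that triggers caspase 8 (ENSMUSG00000024778, chromosome 19, 34290666 to 34327772). It stood at 15.6, 17.7 and 16.8 CPM in control and at 8.001, 6.28 and 7.83 CPM in FAC. The FAC libraries were all lower, at -1.19 on the log2 scale (SE 0.122, edgeR adjusted p = 7.98e-07), a 2.28-fold difference. Phlda3, a pleckstrin-homology protein that inhibits the survival kinase AKT (ENSMUSG00000041801, chromosome 1, 135766119 to 135769136), stood at 14.3, 17.5 and 18.2 CPM in control and at 5.19, 7.01 and 7.51 CPM in FAC. This was the largest fall among the 10 genes, at -1.34 on the log2 scale (SE 0.162, edgeR adjusted p = 6.22e-06).

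Pmaip1 encodes NOXA, a BH3-only protein that acts on MCL1 (ENSMUSG00000024521, chromosome 18, 66458533 to 66465565). It stood at 12.1, 13.9 and 14.0 CPM in control and at 10.6, 12.8 and 11.1 CPM in FAC, with overlapping groups and a log2 fold change of -0.21 (edgeR adjusted p = 0.43, 95% interval -0.63 to 0.20). Bax, which permeabilises the outer mitochondrial membrane (ENSMUSG00000003873, chromosome 7, 45461697 to 45466898), stood at 61.6, 55.5 and 74.8 CPM in control and at 69.3, 65.6 and 73.0 CPM in FAC. It was not called either, at 0.11 (edgeR adjusted p = 0.647). Of its exonic bases 12.2% are shared with the overlapping gene Gm45808, so that its counts are uncertain.

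Sesn1 encodes sestrin 1, a stress-induced brake on mTORC1 signalling (ENSMUSG00000038332, chromosome 10, 41809935 to 41908424). It stood at 62.9, 60.6 and 59.5 CPM in control and at 40.7, 41.6 and 38.6 CPM in FAC. The replicates of each group lay close together, and Sesn1 changed by -0.60 on the log2 scale (SE 0.07, edgeR adjusted p = 3.91e-06).

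**Figure D2:**
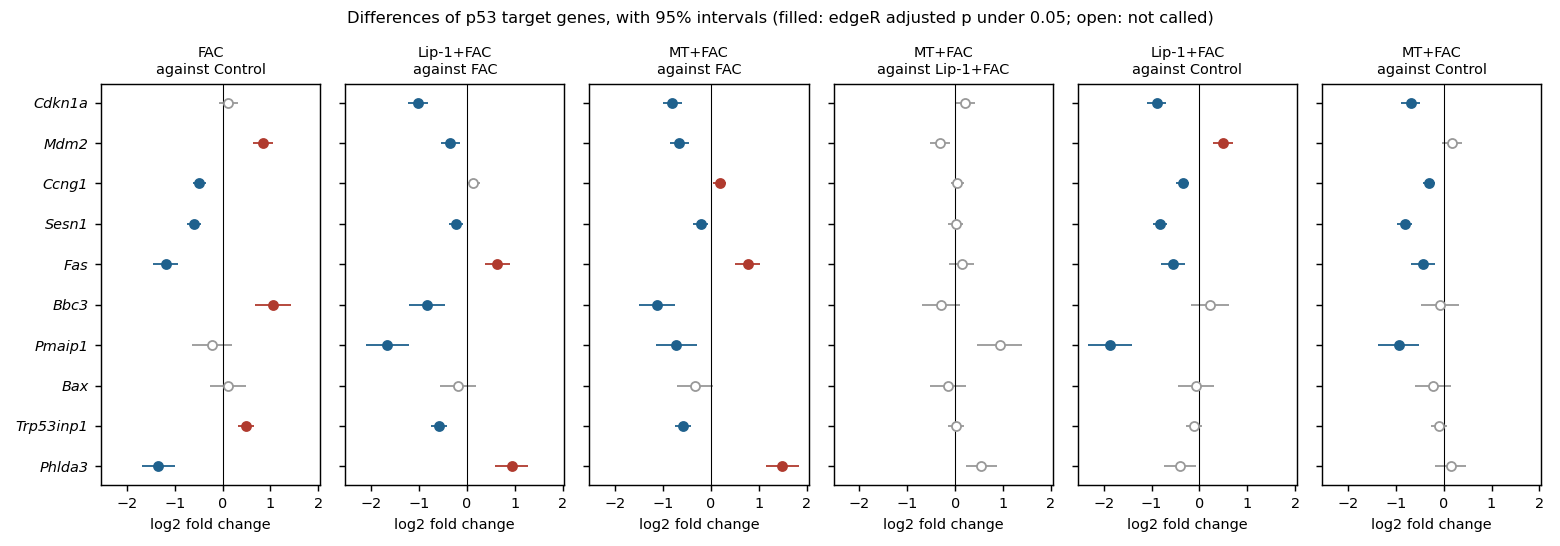
Log2 fold changes of the 10 p53 target genes in 6 comparisons of groups of 3 libraries, with 95% intervals from the edgeR fit; filled points were called at an adjusted p under 0.05 (red higher, blue lower) and open points were not. The values for FAC against control lie on both sides of 0, from -1.34 for Phlda3 to 1.05 for Bbc3, and no gene was called between the pretreated groups.

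Whether a scavenger of lipid ROS changes these levels in FAC-treated cells was measured by comparing Lip-1+FAC with FAC. Cdkn1a and Pmaip1, which FAC had not changed detectably, were the genes that fell most with liproxstatin-1, and Trp53inp1, Bbc3, Mdm2 and Sesn1 fell as well. Fas and Phlda3 rose. The edgeR test called 8 of the 10 genes, 2 higher and 6 lower, beside 39.9% of all genes, 20.7% higher and 19.2% lower. The median of the 10 genes was -0.285 and that of all genes was 0.00063. Lip-1+FAC lay wholly above FAC for 3 of the 10 genes and wholly below for 5, beside 26.4% and 24.4% of all genes. This comparison and that of FAC with control use the same FAC libraries, so that a high or low FAC value enters both with opposite sign.

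Cdkn1a stood at 191, 220.4 and 175 CPM in Lip-1+FAC. Each of these values lay below every FAC and every control library. The summed hepatocyte markers were also lower in this group than in FAC and control, and their part in the result was not tested. The difference from FAC was -1.02 on the log2 scale (SE 0.095, edgeR adjusted p = 9.53e-07), a 2.02-fold difference. Pmaip1 stood at 3.24, 3.65 and 4.10 CPM, likewise below every FAC and control library, with -1.66 (SE 0.216, edgeR adjusted p = 1.65e-05), a 3.15-fold difference.

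Of the genes that FAC had raised, Trp53inp1 stood at 348, 365 and 338 CPM with liproxstatin-1, below every FAC library, and changed by -0.59 (SE 0.079, edgeR adjusted p = 1.76e-05). Bbc3 stood at 14.3, 13.8 and 9.13 CPM and changed by -0.83 (SE 0.178, edgeR adjusted p = 0.00163), and by -0.39 when offsets for GC content and transcript length were fitted. Mdm2 stood at 209, 187 and 189 CPM, overlapping the lowest FAC library, and changed by -0.34 (SE 0.096, edgeR adjusted p = 0.0105). This call was lost without FAC replicate 1, at -0.24, and with only the compared groups in the fit, at -0.35.

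Of the genes that FAC had lowered, Phlda3 stood at 11.9, 12.6 and 13.5 CPM, between the FAC and the control libraries, and rose by 0.94 (SE 0.164, edgeR adjusted p = 0.000202). Fas, at 11.9, 11.2 and 10.9 CPM, also lay between them and rose by 0.63 (SE 0.124, edgeR adjusted p = 0.000524). Sesn1 was an exception: at 32.1, 36.1 and 35.1 CPM it lay below the FAC libraries, with -0.23 (SE 0.071, edgeR adjusted p = 0.0164). The Sesn1 call was lost without FAC replicate 1 (-0.21), without FAC replicate 2 (-0.20) and without Lip-1+FAC replicate 1 (-0.17). Ccng1, at 142.4, 144.5 and 137.9 CPM, was not called at 0.13 (edgeR adjusted p = 0.114), although its groups did not overlap. Bax, at 72.7, 66.9 and 43.2 CPM, was not called at -0.18 (edgeR adjusted p = 0.424), the third library being the lowest of all 12.

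The scavenger of mitochondrial ROS was examined by comparing MT+FAC with FAC. Bbc3, Cdkn1a, Pmaip1, Mdm2, Trp53inp1 and Sesn1 fell with Mito-TEMPO, and Phlda3, Fas and Ccng1 rose. The edgeR test called 9 of the 10 genes, 3 higher and 6 lower, beside 40.9% of all genes, 21.2% higher and 19.7% lower. The median of the 10 genes was -0.455 and that of all genes was -0.0011. MT+FAC lay wholly above FAC for 2 of the 10 genes and wholly below for 7, beside 27.1% and 25.7% of all genes. The FAC libraries are again shared with the other comparisons against FAC.

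Bbc3 stood at 11, 9.62 and 9.85 CPM in MT+FAC, within the range of the control libraries, and changed by -1.13 (SE 0.18, edgeR adjusted p = 0.000152). Mdm2 stood at 156.6, 151.4 and 162 CPM, below every FAC library, with -0.66 (SE 0.096, edgeR adjusted p = 8.13e-05). Trp53inp1, at 320.1, 356 and 383 CPM, also lay below every FAC library, with -0.58 (SE 0.079, edgeR adjusted p = 2.58e-05). All 3 genes raised by FAC were therefore lower with Mito-TEMPO.

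Cdkn1a stood at 219, 223 and 235 CPM, below every FAC and control library, at -0.81 (SE 0.094, edgeR adjusted p = 1.02e-05). Pmaip1 varied more, at 4.22, 9.33 and 7.43 CPM, and changed by -0.72 (SE 0.202, edgeR adjusted p = 0.00943). Without MT+FAC replicate 1, the lowest of these libraries, its value was -0.46 and still called. Sesn1, at 33.2, 36.2 and 34.5 CPM, changed by -0.22 (SE 0.071, edgeR adjusted p = 0.0204). Its call was lost without the filter on low counts (-0.21), without FAC replicate 1 (-0.22), without FAC replicate 2 (-0.19), without MT+FAC replicate 1 (-0.19) and without MT+FAC replicate 3 (-0.21).

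Phlda3 showed the largest rise of the 10 genes in this comparison. It stood at 16.7, 15.6 and 23.4 CPM and rose by 1.49 (SE 0.162, edgeR adjusted p = 1.93e-06), a 2.81-fold difference. Fas, at 11.6, 13.9 and 11.8 CPM, rose by 0.77 (SE 0.123, edgeR adjusted p = 9.01e-05). Ccng1, at 135.7, 141.3 and 162 CPM, overlapped FAC and was called at 0.18 (SE 0.064, edgeR adjusted p = 0.0338). That call was lost in 7 alternative fits, among them those without FAC replicate 1 (0.16), FAC replicate 2 (0.15), MT+FAC replicate 2 (0.19) or MT+FAC replicate 3 (0.10) and the one with offsets for GC content and length (0.064). Bax, at 54.4, 50.7 and 59.9 CPM, lay below every FAC library but was not called, at -0.33 (edgeR adjusted p = 0.143). With the compared groups alone in the fit, Bax was called at the same size (edgeR adjusted p = 0.00265), and with the offsets its sign changed.

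The pretreatments were then compared with each other, MT+FAC against Lip-1+FAC. No p53 target gene was called by edgeR, where 1.34% of all genes were called. At an unadjusted p under 0.05 there were 4, namely Pmaip1, Phlda3, Mdm2 and Cdkn1a, and DESeq2 called 2, Pmaip1 and Phlda3. Pmaip1 was higher with Mito-TEMPO in every library, by 0.93 (SE 0.222, edgeR adjusted p = 0.0509, 95% interval 0.46 to 1.40), and it was called in 8 of the alternative fits. Phlda3 was also higher without overlap, by 0.55 (edgeR adjusted p = 0.0931, 95% interval 0.22 to 0.88), and Mdm2 lower without overlap, at -0.32 (edgeR adjusted p = 0.13, 95% interval -0.52 to -0.11). With a library left out, the value of Phlda3 ranged from 0.352 to 0.647 and that of Pmaip1 from 0.641 to 1.21. Groups without overlap numbered 2 higher and 1 lower, beside 10.2% and 9.60% of all genes, and whether these genes were called depended on the method. The values nearest 0 were those of Sesn1, 0.01 with -0.14 to 0.16, of Trp53inp1, 0.01 with -0.16 to 0.18, and of Ccng1, 0.05 with -0.09 to 0.18.

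Both pretreated groups were set against untreated cells, where FAC and scavenger change together. Cdkn1a, Pmaip1, Sesn1, Fas and Ccng1 were lower than in control in both pretreated groups, and Mdm2 was higher in Lip-1+FAC. In Lip-1+FAC against control the edgeR test called 6 of the 10 genes, 1 higher and 5 lower, beside 30.2% of all genes, 15.4% higher and 14.8% lower. In MT+FAC against control it called 5, all lower, beside 19.8% of all genes, 9.71% higher and 10.1% lower. Without overlap, 1 gene lay above control and 6 below in Lip-1+FAC, beside 21.3% and 22.0% of all genes, and 1 above and 5 below in MT+FAC, beside 19.0% and 19.2%. The control libraries are shared by these comparisons.

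Pmaip1 differed most, by -1.87 in Lip-1+FAC (SE 0.217, edgeR adjusted p = 9.14e-06) and by -0.94 in MT+FAC (SE 0.204, edgeR adjusted p = 0.00435). Cdkn1a was lower by -0.90 (SE 0.095, edgeR adjusted p = 6.14e-06) and -0.69 (SE 0.094, edgeR adjusted p = 0.000164). Sesn1 was lower by -0.83 (SE 0.071, edgeR adjusted p = 1.62e-07) and -0.82 (SE 0.071, edgeR adjusted p = 5.22e-07), the smallest adjusted p of the 10 genes in each comparison. Sesn1, Fas and Ccng1 lay below every control library in all 9 treated libraries.

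Fas remained below control, by -0.56 in Lip-1+FAC (edgeR adjusted p = 0.00177) and -0.42 in MT+FAC (edgeR adjusted p = 0.0173). The latter call was lost without Control replicate 2, MT+FAC replicate 1 or MT+FAC replicate 3, at -0.38, -0.38 and -0.39, and under GC and length offsets, at -0.305. Ccng1 differed by -0.35 and -0.30 (edgeR adjusted p = 0.000429 and 0.00279). Mdm2 was above control in Lip-1+FAC by 0.50 (SE 0.097, edgeR adjusted p = 0.00122) and was not called in MT+FAC, at 0.18 (edgeR adjusted p = 0.21). All MT+FAC libraries nevertheless lay above control for Mdm2, and it was called without the filter on low counts (0.20) and with the compared groups alone (0.18). Bbc3, Trp53inp1 and Phlda3, all changed by FAC alone, were not called against control in either pretreated group. Their log2 fold changes were 0.22, -0.11 and -0.40 in Lip-1+FAC and -0.07, -0.10 and 0.15 in MT+FAC. In Lip-1+FAC the Phlda3 libraries lay wholly below control, and Phlda3 was called in 4 alternative fits, among them those without the filter (-0.39), with the compared groups alone (-0.40) and without Control replicate 1 (-0.49). Under GC and length offsets, Bbc3 (0.48) and Trp53inp1 (-0.255) were called in Lip-1+FAC as well. Bax was not called, at -0.07 and -0.22.

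The gene for p53 itself was examined with its regulators. Trp53 stood at 74.0, 79.6 and 84.7 CPM in control and at 103, 105 and 86.9 CPM in FAC. The groups did not overlap, and Trp53 rose by 0.31 (SE 0.079, edgeR adjusted p = 0.00508). It was also above control with liproxstatin-1, by 0.45, and with Mito-TEMPO, by 0.35, and was not called against FAC in either, at 0.14 and 0.04. Mdm4, which encodes an inhibitor of p53 related to Mdm2, rose with FAC by 0.40 and was lower in MT+FAC than in FAC, by -0.28, while -0.21 in Lip-1+FAC was not called. Transcript levels do not measure the stability or activity of the p53 protein.

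Of the 20 genes listed for p53 and its regulators, 17 were tested. FAC against control called 7 higher and 1 lower, or 47.1% beside 36.6% of all genes, with a median of 0.31. The largest called rise was that of Sirt1, a deacetylase of p53, by 0.84 (SE 0.138, edgeR adjusted p = 0.000135). Chek1 had a larger value, 0.93, but was not called (edgeR adjusted p = 0.157). The called fall was that of Chek2, a kinase that phosphorylates p53 after DNA damage, by -0.85 (edgeR adjusted p = 0.0056). Against the same FAC libraries, Sirt1 changed by -0.52 with liproxstatin-1 and -0.70 with Mito-TEMPO, and Chek2 by 1.07 and 1.06. In each of these comparisons 4 of the 17 genes were called, or 23.5%, below the 39.9% and 40.9% of all genes. Atm, the kinase upstream of Chek2, was above control by 0.54 with FAC alone, 0.84 after liproxstatin-1 and 0.67 after Mito-TEMPO. Chek1 had the largest values against control in the pretreated groups, 1.62 and 1.54, at group means below 1 CPM. Cdkn2a, which encodes the Mdm2 inhibitor ARF, and the p53 relative Trp63 had no count in any library.

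The other p53 targets, 42 genes in 3 lists of which 39 were tested, were also split. FAC against control called 13 higher and 8 lower, or 53.8% beside 36.6% of all genes, with a median of -0.04. Of the arrest and DNA repair genes, 6 were higher and 3 lower of 13 tested, from Sfn (14-3-3 sigma, which holds cells in G2), which rose by 1.93 (SE 0.207, edgeR adjusted p = 1.99e-06), to Gtse1, a negative regulator of p53, at -1.0. Plk3 and Plk2, polo-like kinases of stress responses, rose by 1.28 and 0.80, and the excision repair nuclease gene Ercc5 changed by -0.73. Of 12 apoptosis genes, 2 were higher and 3 lower, the extremes being Bcl2l1, which encodes the survival protein BCL-XL, at 0.61, and Ei24 at -0.43. Of 14 genes of metabolism, redox and secretion, 5 were higher and 2 lower, led by the secreted stress protein gene Gdf15 at 0.78 and by the proline-pathway enzyme gene Aldh4a1 at -0.40. The polyamine acetyltransferase gene Sat1 rose by 0.56.

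**Figure D3:**
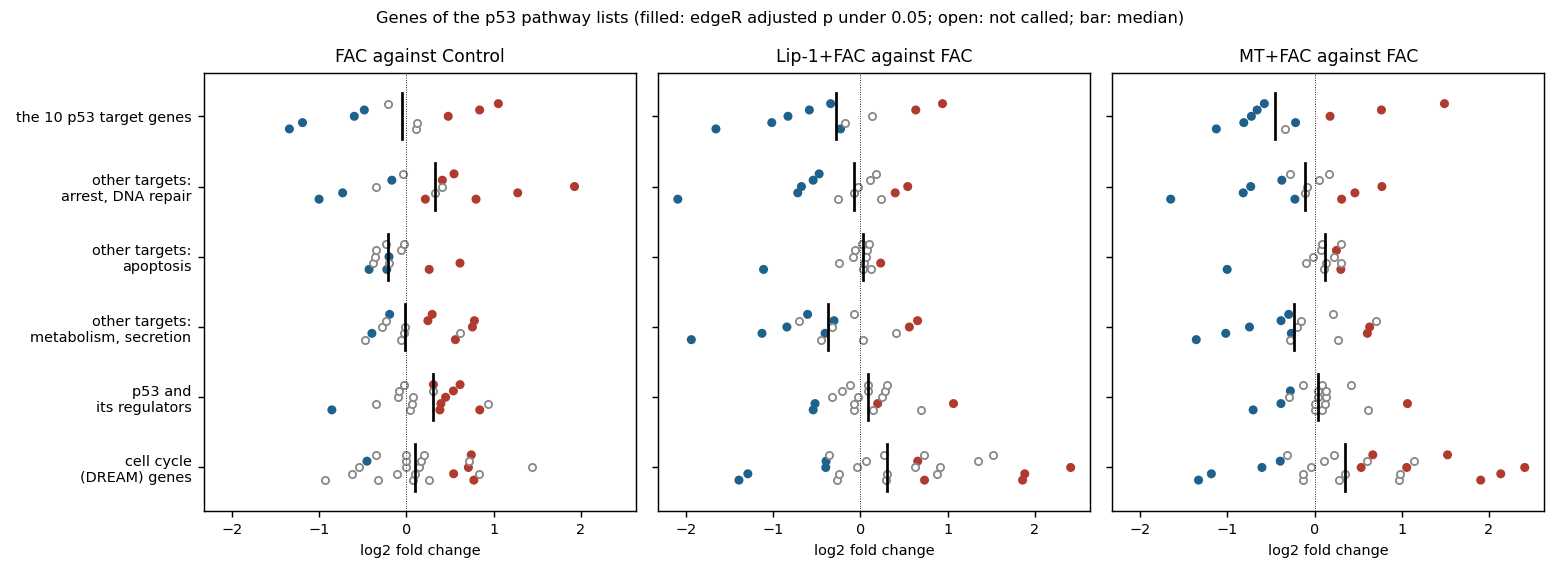
Log2 fold changes of the tested genes of 6 lists (10 p53 target genes, 3 lists of other p53 targets, p53 and its regulators, cell cycle genes) in FAC against control and in both pretreated groups against FAC; filled points were called by edgeR (red higher, blue lower), open points were not, and bars are medians. Every list of p53 targets holds called genes on both sides of 0 in each of the 3 comparisons.

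With liproxstatin-1, 5 of the 39 other targets were higher and 12 lower than in FAC, or 43.6% beside 39.9% of all genes, with a median of -0.07. With Mito-TEMPO, 7 were higher and 12 lower, or 48.7% beside 40.9% of all genes, with a median of -0.02. Sfn changed by -2.09 and -1.65 in Lip-1+FAC and MT+FAC, Gls2, a mitochondrial glutaminase gene, by -1.13 and -1.02, and Bcl2l1 by -1.11 and -1.0. The largest rises were those of Ephx1, the microsomal epoxide hydrolase gene, at 0.65 with liproxstatin-1, and of Ercc5 at 0.77 with Mito-TEMPO. Tigar, which encodes a phosphatase that slows glycolysis, rose by 0.56 and 0.60. Between the pretreatments Btg2, an antiproliferative gene, was the only one of the 39 called, higher with Mito-TEMPO by 0.34 (SE 0.068, edgeR adjusted p = 0.0154), with 8 at an unadjusted p under 0.05. Against control, 7 were higher and 11 lower in Lip-1+FAC, or 46.2% beside 30.2% of all genes, and 6 higher and 9 lower in MT+FAC, or 38.5% beside 19.8%. The largest of these were Plk2, at 0.90 and 0.57, and Gtse1, at -1.68 and -0.95.

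Cell cycle genes that p53 and p21 lower through the DREAM repressor complex are given beside Cdkn1a. Of 25 listed genes 23 were tested. FAC against control called 4 higher, Ccne2, Mcm6, Ccne1 and Pcna, at 0.77, 0.74, 0.71 and 0.54, and 1 lower, Mcm2, at -0.45. These were 21.7% of the list, below the 36.6% of all genes. Lip-1+FAC against FAC called 5 higher and 4 lower, with a median of 0.305, and MT+FAC against FAC 7 higher and 4 lower, with a median of 0.352. These were 39.1% and 47.8% of the list, beside 39.9% and 40.9% of all genes. The mitotic cyclin gene Ccnb1 rose by 2.41 in each, from 0.237 CPM in FAC to 1.25 and 1.26 CPM. Mcm6, a subunit of the replicative helicase, went the other way, at -1.39 and -1.18, from 112 CPM in FAC to 42.7 and 49.3 CPM. The list medians include genes with few counts: Ccna2, Plk1, Birc5, Top2a and Mki67 stood below 1 CPM in every group mean. No gene of this list was called between the pretreatments, with 2 at an unadjusted p under 0.05.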

How the data were processed

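Reads per gene were counted with STAR against GRCm38, per the submitters' processing notes; the STAR version and the annotation are not given in the sources used here. The deposited files hold raw counts in an unstranded column, used here, and a column for each strand. Libraries were made with the SMART-Seq v4 and Nextera XT kits, per the labels' protocols. The summary lines that name no gene were left out, and gene-assigned counts made up 75.8% to 81.2% of the reads listed. Symbols, coordinates and exon lengths come from GENCODE M21 (GRCm38), which matched 55227 identifiers.

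All 12 libraries were fitted in edgeR 4.0.16 (R 4.3.3) with filterByExpr, TMM factors (0.989 to 1.01), 4 group means, robust quasi-likelihood dispersion and Benjamini-Hochberg adjustment over 13535 genes. In simulated counts with known changes the share of false calls lay above the nominal level of this adjustment, which bears most on calls close to the threshold. P-values are two-sided. The SE is the size of the log2 fold change over the root of F, and 95% intervals from the SE and the degrees of freedom of the fit. CPM are TMM-scaled. Alternatives are given in the closing section; offsets for GC content and length were added after the data were seen. Copies of the 10 genes were searched with blastn 2.17.0+ (identity of at least 95% over 200 bases); besides a transcript overlapping Cdkn1a none was found among annotated transcripts. All 10 genes are named in every comparison, Trp53 and Mdm4 too, and of other lists chiefly the largest called rise and fall; Plk2, Plk3, Ercc5, Sat1, Tigar, Gls2, Atm, Chek2 and Sirt1 were partly named after their values were seen. The members and lists were chosen with earlier results of these data known, so that list counts are descriptions.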

Additional observations from a re-analysis of the deposited data

How the results depend on the processing

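The number of the 10 genes called by edgeR stayed within 1.5 times its main value in every alternative for 5 of the 6 comparisons: RLE and upper quartile scaling, no filter or a mean CPM of at least 5, DESeq2, the compared groups alone, a replicate block, summed strand columns, thinning to the smallest library, each library left out in turn, and offsets for GC content and length. In MT+FAC against Lip-1+FAC, where 0 were called, there were 1 with upper quartile scaling, 4 without the filter, 1 at a mean CPM of at least 5, 2 with DESeq2, 1 with the compared groups alone, 2 with the replicate block, 1 with summed strand columns, 1 with the offsets and 0 to 1 with a library left out. All genes called, MT+FAC against Lip-1+FAC, numbered 182, and 477 without the filter, 432 with DESeq2, 312 with the compared groups alone and 74 to 156 with a library left out. Same-numbered replicates correlated in their deviations from group means at -0.249 to 0.164, others at -0.196 to 0.221, and 4 of 12 libraries correlated best with their own number, so the numbers were not taken as pairs. With the replicate block Phlda3 was called in Lip-1+FAC against control (-0.393). Of 960 single-gene values under alternatives, 895 kept direction and call, 21 lost a call, 23 gained one and 21 changed sign, none of the latter called in the main fit. With the offsets the sign changed for Bax in FAC against control (-0.039), Lip-1+FAC against FAC (0.29), MT+FAC against FAC (0.092), Lip-1+FAC against control (0.25) and MT+FAC against control (0.053), for Ccng1 in Lip-1+FAC against FAC (-0.032), Sesn1 in MT+FAC against Lip-1+FAC (-0.023) and Bbc3 in MT+FAC against control (0.11). With summed strand columns it changed in MT+FAC against Lip-1+FAC for Trp53inp1 (-0.0084) and Sesn1 (-0.0095). With a library left out, values ranged from -0.324 to 0.0153 for Bax in Lip-1+FAC against FAC and from -0.208 to 0.13 against control. In MT+FAC against Lip-1+FAC they ranged from -0.0344 to 0.103 for Ccng1, -0.0546 to 0.0809 for Trp53inp1 and -0.0412 to 0.0455 for Sesn1. In MT+FAC against control they ranged from -0.189 to 0.0645 for Bbc3 and -0.0446 to 0.263 for Phlda3. The cause of these changes was not tested. Counts were lowest for Pmaip1, Phlda3, Fas and Bbc3, whose SEs, with those of Bax, were the largest.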

Other observations

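The BCL2 family outside the 10 genes, through which PUMA, NOXA and BAX act, moved in both directions with FAC: of 12 tested genes, 4 were called higher and 3 lower, or 58.3% beside 36.6% of all genes. Hrk, a BH3-only gene, rose from 0.558 to 2.22 CPM, by 1.99 on the log2 scale (SE 0.358, edgeR adjusted p = 0.000289). It was also above control in Lip-1+FAC, by 2.47, and in MT+FAC, by 1.51. The survival genes Bcl2l1 and Mcl1, the partner of NOXA, rose by 0.61 and 0.35, and the BH3-only gene Bmf changed by -1.26, with Bok at -0.83 and Bik at -0.73. Bcl2l1 stood at 319.7, 284 and 304 CPM in control and at 473, 476 and 440.3 CPM in FAC. In Lip-1+FAC it stood at 211, 232 and 201 CPM, below every control library, with a log2 fold change against FAC of -1.11 (SE 0.063, edgeR adjusted p = 9.51e-10). In this comparison edgeR called 3 genes lower and 0 higher, with 5 at an unadjusted p under 0.05. This was 25% of the list, below the 39.9% of all genes. With Mito-TEMPO 3 were higher and 2 lower, or 41.7% beside 40.9% of all genes. The survival gene Bcl2 rose most, at 1.3, from 0.443 CPM in FAC to 1.12 CPM. Bmf and Bok were the others called higher, at 0.82 and 0.62, and Mcl1 was among those lower, at -0.33.

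The death receptor pathway around Fas was measured without its ligand, since Fasl had no count in any library. Of 11 tested genes, FAC called 5 higher and 2 lower, or 63.6% beside 36.6% of all genes. Cflar, which encodes the caspase 8 inhibitor FLIP, rose by 0.55 (SE 0.082, edgeR adjusted p = 4.3e-05), and Casp8 changed by -0.28. In both pretreated groups against FAC, Cflar was lower, at -0.32 and -0.31. Bid belongs to both lists and to the other p53 targets, as Bcl2l1 does to the last.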
